A study of Mus musculus with 14 samples.

Results

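The Control lungs of this series are the 4 arrays titled Control, out of 14 arrays in all, and were chosen by that label alone. They came from mice aged 18 to 22 weeks that were given PBS and were not ventilated. The other 10 arrays are labelled VALI (n = 4, ventilated for 4 hours, aged 18 to 22 weeks), PBEF+/- (n = 3, not ventilated, aged 18 to 22 weeks) and VILI PBEF+/- (n = 3, ventilated for 4 hours, aged 8 to 12 weeks). Both ventilated groups had a tidal volume of 40 ml per kg. PBEF is the product of Nampt. The text of the series speaks of recombinant human PBEF given into the trachea, and the labels do not say what +/- stands for. Control lung was not tested against these arrays, and their values appear only as ranges of 5 genes in the closing observations. Total RNA of whole lung was extracted with Trizol, labelled with biotin from 6 µg of RNA and hybridised to an Affymetrix mouse array. The labels give neither sex nor strain, and do not say that each array stands for a different animal, so the spread reported here may be partly technical. The arrays are called replicates 1, 2, 3 and 4, and wherever 4 values are given for a gene they stand in that order.

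Gas exchange in the lung takes place across flat alveolar type I cells and the capillary endothelium beneath them. Cuboidal alveolar type II cells make surfactant, a film of phospholipid and surfactant proteins that keeps the alveoli open. Club and ciliated cells line the airways, where club cells secrete protective proteins and metabolise inhaled chemicals, and macrophages patrol the air spaces.

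The values are deposited log2 probe set levels, and a difference of 1 is 2-fold. Each gene was read from its probe set with the highest mean over the 4 arrays, which gave 18194 genes with a median level of 7.29. Probe sets differ in how strongly they bind their transcript, so a rank is a rank of probe set signal and not an order of transcript abundance. The highest level on any of the 4 arrays was 16.13, and the files do not record whether such values were saturated. The 4 arrays had medians of 4.70, 4.68, 4.64 and 4.62 over all probe sets. No pair of arrays shared more than 12 identical values among 45101 probe sets. Levels near 2 mark the lower end of the scale: 22 genes of thyroid, liver, exocrine pancreas and retina averaged 1.85 to 3.19, with a median of 2.25. Nampt, the gene of the study, had 10.21, 10.36, 10.21 and 9.95 in Control lung, a mean of 10.18 ± 0.17 (SD, n = 4) that exceeded 79.1% of all genes.

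The highest levels belonged to secreted airway proteins, lysozymes, surfactant, the actin cytoskeleton and ribosomal proteins. Scgb1a1, the secretoglobin that club cells release into the airway lining fluid, ranked highest, at 16.08, 16.07, 16.02 and 16.04. Lyz1, a bacteria-digesting lysozyme, followed at 15.87, 16.12, 16.06 and 16.13. Sftpc, the small hydrophobic surfactant protein C, ranked 5, at 15.68, 15.64, 15.61 and 15.70. Ager, the receptor that marks alveolar type I cells, ranked 11, at 15.48, 15.36, 15.28 and 15.41. The 4 arrays of each of these genes lay close together, except that Lyz1 was lowest on replicate 1. Lyz2, the lysozyme of macrophages, was likewise lowest there, with 15.28, 15.61, 15.55 and 15.60. Lyz1 and Lyz2 are near-identical in sequence, and their probe sets may share transcripts.

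The other genes of the first 30 had broad or supporting roles. Rps29, Rps28, Rpl13a, Rplp2, Rpl37a, Rps4x, Rps20, Rplp0 and Rpl35 encode ribosomal proteins and averaged between 15.05 and 15.99. Such genes have many near-identical copies in the genome, so their probe sets cannot be tied to 1 copy with certainty. Gsn, the actin-severing gelsolin, averaged 15.67, and Actb, cytoplasmic actin, averaged 15.62. Tpt1, Tmsb10, Tmsb4x, Eef1a1 and Vim, genes of growth, actin binding, translation and intermediate filaments, averaged 15.06 to 15.57. Fth1, the heavy chain of the iron store ferritin, had the smallest spread of the 30, with an SD of 0.01 around 15.42. Epas1, an oxygen-sensing transcription factor, averaged 15.12 ± 0.05 (SD, n = 4). Also here were 3 enzymes that act on small molecules: Cbr2, a carbonyl reductase of club cells, at 15.13, Aldh1a1, which oxidises retinaldehyde, at 15.13, and Inmt, a methyltransferase of indoleamines, at 15.08. Ly6e, Mettl7a1, Mgp and Pltp averaged 15.32, 15.10, 15.02 and 15.01. Mgp is a matrix protein that restrains calcification, and Pltp transfers phospholipids.

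Neighbouring ranks mostly could not be ordered. Among the first 30 genes, the gap to the next gene exceeded the larger of both SDs at 2 places. One lay below Rps29, where the mean dropped by 0.32 to Gsn, and the other below Tmsb4x, where the gap to Rplp2 was 0.07. On the probe sets used, Scgb1a1, Lyz1 and Rps29 therefore stood above all other genes by more than the spread between arrays. Lyz1 could not be ordered against the other 2. Scgb1a1 lay above Rps29 on each of the 4 arrays, where Rps29 had 16.03, 15.99, 16.01 and 15.93. The other Rps29 probe sets averaged 14.86 and 15.09, and the other Lyz1 probe sets 15.79 and 5.65.

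**Figure D1:**
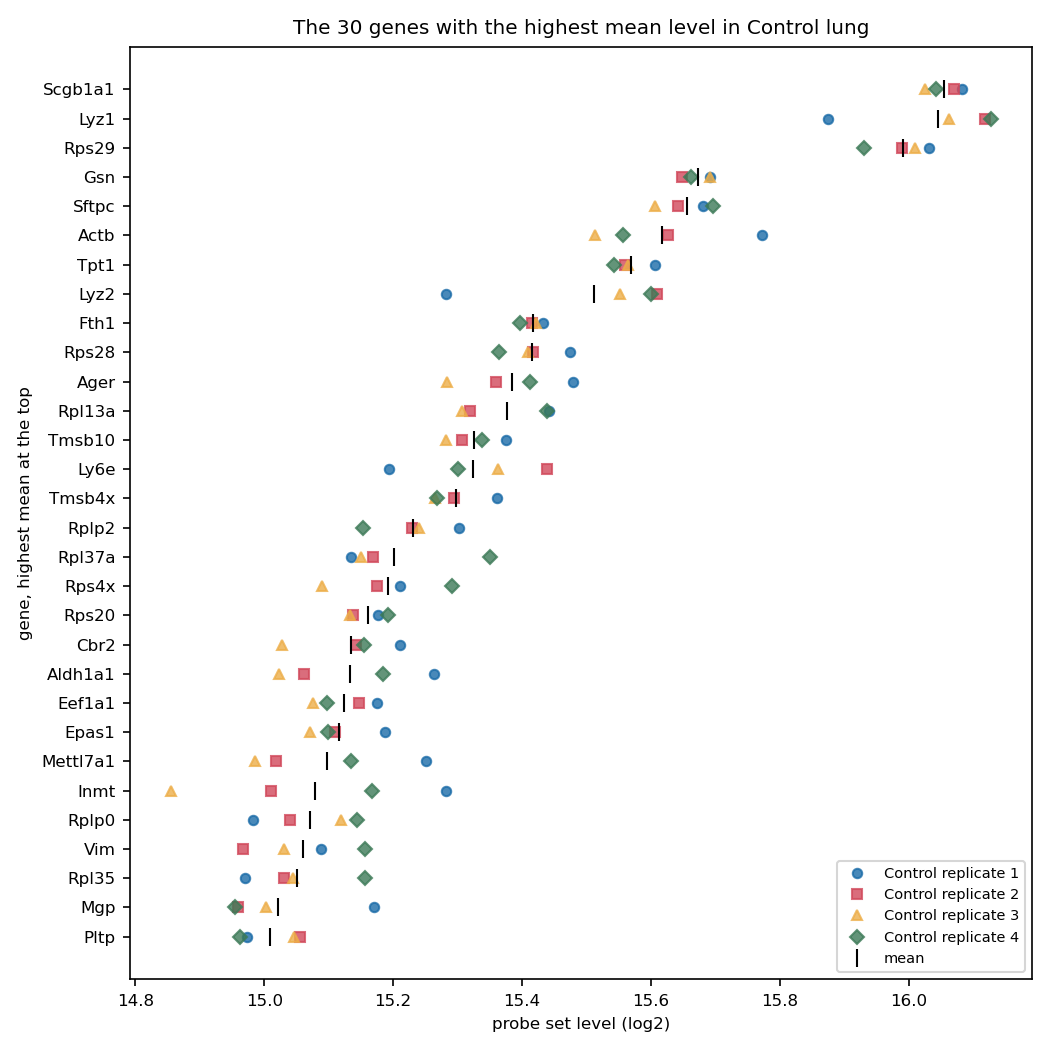
Probe set level (log2, horizontal axis) of the 30 genes with the highest mean in Control lung, 1 row per gene with the highest mean at the top; each symbol is 1 of the 4 Control arrays and the black bar is their mean. Scgb1a1, Lyz1 and Rps29 stand apart at about 16, and below them the arrays of neighbouring genes overlap.

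Of the highest 100 genes, 22 were among the 50 ribosomal protein genes measured and 9 among 13 measured genes of a housekeeping list. Another 13 were markers on a cell type list. With the mean of all probe sets of each gene, 50 of the 100 stayed among the highest 100. Epithelial cells accounted for 10 of those 13: Scgb1a1, Cbr2, Cyp2f2 and Scgb3a2 to club cells, Sftpc, Sftpa1 and Cxcl15 to type II cells, and Ager, Hopx and Emp2 to type I cells. The remaining 3 were Calcrl, the endothelial receptor of adrenomedullin, at 14.50, Inmt of the fibroblast list and Lyz2 of the monocyte and macrophage list. Cox6a1 was the 1 gene of the oxidative phosphorylation list, out of 90 measured, in the highest 100. That list leaves out mitochondrially encoded genes, of which ND5 ranked 44 at 14.77. The ranking covers probe sets with 1 gene symbol. Among the highest 100 probe sets of any annotation, 57 carried 1 symbol, 34 carried several, 29 of these including a ribosomal protein gene, and 9 carried none. Haemoglobin probe sets with several symbols were among those left unnamed. The red blood cell list was read with Hba-a1, Hba-a2 and Hbb-b2 from probe sets with 1 symbol, at 2.33, 1.78 and 4.44. Its median of 4.49 therefore does not cover the unnamed haemoglobin probe sets.

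The 34 cell type lists held 279 measured genes, of which 78, or 28.0%, lay in the highest 10% of all genes (level 11.38 or more), a cut that holds 1819 of the 18194 genes. The share differed widely between lists. All 13 measured markers of alveolar type II cells and all 12 of alveolar type I cells were in the highest 10%, with median levels of 13.52 and 13.27. So were 8 of 9 club cell markers, with a median of 13.91, and 9 of 10 fibroblast markers, with a median of 13.05. With the mean of all probe sets of each gene, 5 fibroblast markers were in the highest 10%. Endothelial markers followed with 11 of 16 and a median of 12.72, and markers of lung capillary subtypes with 6 of 8 and a median of 12.39. In a whole tissue, more cells of a type and more RNA per cell cannot be told apart.

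**Figure D2:**
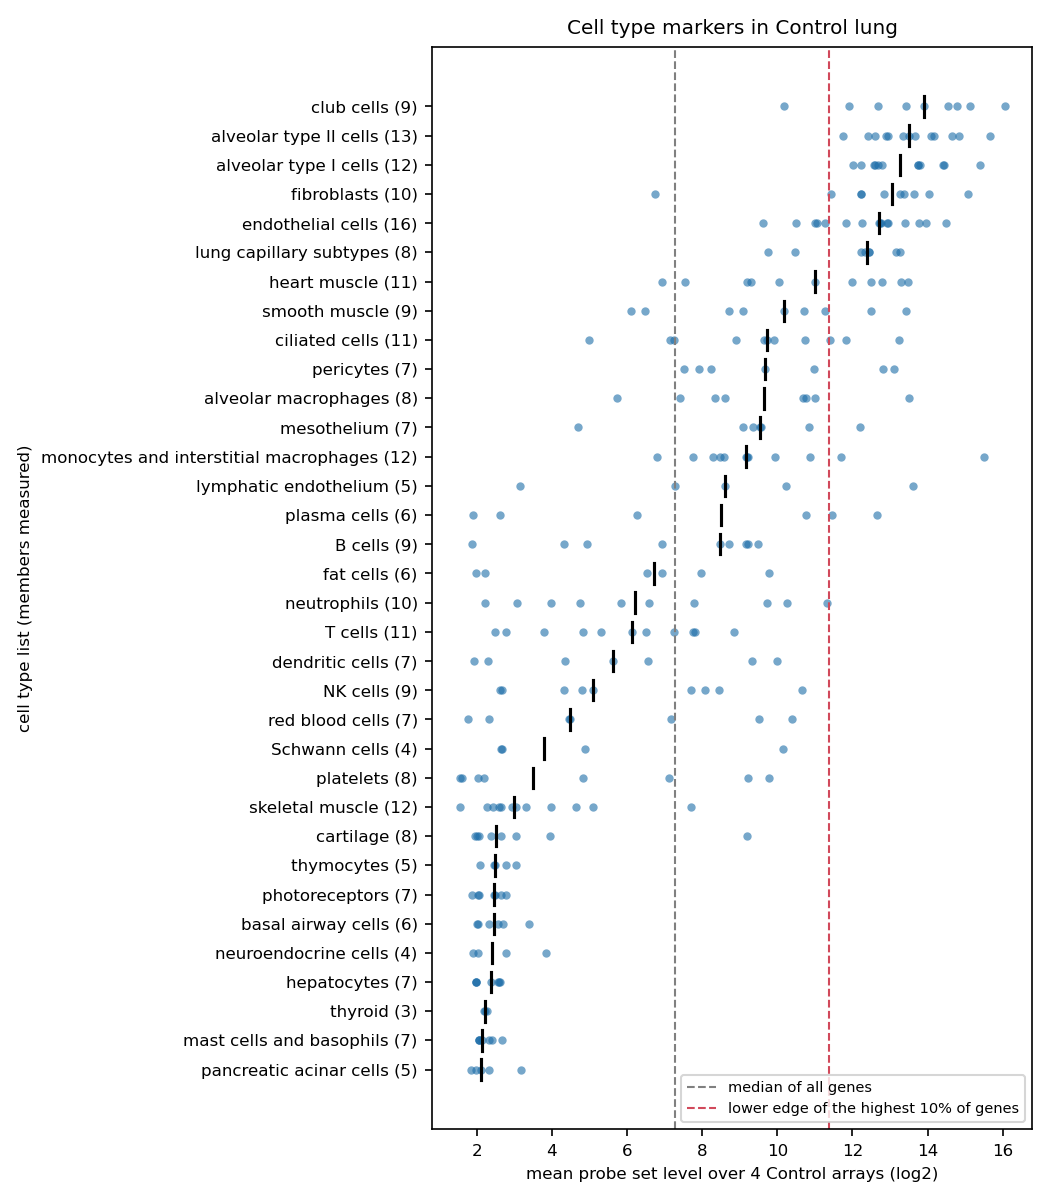
Mean probe set level over the 4 Control arrays (log2, horizontal axis) of each measured marker of 34 cell type lists, ordered by their median (black bar), with the number of measured members in brackets; dashed lines show the median of all genes, 7.29, and the lower edge of the highest 10%, 11.38. Epithelial, endothelial and fibroblast lists stand at the top, and basal airway, mast cell and foreign tissue lists lie near 2.

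Within the epithelium, surfactant genes headed the type II list. After Sftpc came Sftpa1, a collectin that binds microbes, at 14.85 ± 0.29, Cxcl15, a lung-restricted chemokine, at 14.64 ± 0.54, Sftpd, a second collectin, at 14.17 ± 0.24, and Sftpb, needed to spread the surfactant film, at 14.10 ± 0.18 (SD, n = 4 each). Type I genes after Ager were Hopx, a homeodomain protein without DNA binding, at 14.45, Emp2, a membrane protein, at 14.40, and Gprc5a, a retinoic acid-induced receptor, at 13.80. Airway secretory genes after Scgb1a1 and Cbr2 were Cyp2f2, a cytochrome P450 of club cells, at 14.80, Scgb3a2, another secretoglobin, at 14.53, and Bpifa1, an antimicrobial airway protein, at 13.91. Ciliated cell markers ranged more widely, with 3 of 11 in the highest 10% and a median of 9.74. Tppp3, a tubulin-binding protein, averaged 13.24, Dynlrb2, a dynein light chain, 11.84, and Foxj1, the transcription factor of motile cilia, 9.92. Basal airway cell markers, 6 measured, lay between 2.01 and 3.40, and neuroendocrine markers, 4 measured, between 1.90 and 3.85, which overlaps the range of the foreign tissue genes.

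Endothelial and stromal markers were also high. Ramp2, the partner protein of Calcrl, averaged 13.97, Ptprb, an endothelial phosphatase, 13.78, and Tek, the angiopoietin receptor, 13.41. Among capillary subtype markers, Plvap, a protein of endothelial fenestrae, averaged 13.27. Car4, a carbonic anhydrase of aerocytes, averaged 13.15, Ednrb, an endothelin receptor also found on aerocytes, 12.45, and Kit, a receptor of general capillary cells, 12.45. Lyve1, a hyaluronan receptor used as a lymphatic marker, averaged 13.61, whereas Prox1, the defining transcription factor of lymphatic endothelium, lay at 3.15. Fibroblast markers after Inmt included Npnt, a matrix protein, at 14.05, Col3a1, a fibrillar collagen, at 13.65, and Pdgfra, a growth factor receptor, at 13.37. Acta2 and Tagln, contractile genes of smooth muscle, averaged 13.43 and 12.51, and Pdgfrb, a pericyte receptor, 12.80. Sparc and Col4a1, a matrix glycoprotein and a basement membrane collagen, averaged 14.64 and 14.42.

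Markers of immune cells lay lower. Monocyte and interstitial macrophage markers had a median of 9.17, with Csf1r, the receptor of the macrophage growth factor, at 11.70, next after Lyz2. Chil3, a chitinase-like protein of alveolar macrophages, averaged 13.50, and that list had a median of 9.64. B cell markers had a median of 8.47, T cell markers 6.13, NK cell markers 5.09 and dendritic cell markers 5.62, and none of their measured members was in the highest 10%. Gzma, a granzyme of NK cells, was the highest of them at 10.66. Neutrophil markers had a median of 6.21, with S100a8 and S100a9, calcium-binding granule proteins, at 11.31 and 10.25, and Ltf, lactoferrin, at 9.74. Camp and Mmp8, proteins of neutrophil granules, averaged 2.21 and 3.07. The 7 mast cell and basophil markers lay between 2.05 and 2.68. Many antigen presentation genes, made by several cell types, were higher. Of 7 MHC class II genes, 4 were in the highest 10% and 2 averaged below 6, over a range of 5.70 to 14.02. Of 5 MHC class I genes, 4 were in the highest 10%, over a range of 9.05 to 14.96. Cd74, the invariant chain, averaged 14.02, H2-Aa 13.68, H2-D1 14.91 and B2m 14.96.

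Heart muscle genes were clearly present. Of 11 measured, 5 lay in the highest 10% (3 with the mean of all probe sets of each gene), and all 11 averaged at least 6. Myh6, the heavy chain of atrial and adult mouse heart myosin, had 13.63, 13.61, 13.18 and 13.49. Actc1, cardiac actin, had 13.40, 13.32, 13.17 and 13.30, and Myl7, the atrial regulatory light chain, had 12.72, 12.95, 12.59 and 12.85. All 4 arrays held these transcripts at like levels, with SDs of 0.21, 0.09 and 0.16, and replicate 3 was the lowest array for 10 of the 11 genes, against 20.5% of all genes with a mean of at least 6. Nppa, the atrial natriuretic peptide, averaged 10.03, and Myh7 and Myl3, genes of the ventricular and slow muscle myosin, averaged 6.94 and 7.55. Skeletal muscle markers had a median of 2.99, with 11 of 12 below 6 and Ckm, the muscle creatine kinase, which the heart also makes, at 7.72. Cardiac muscle is also found in the wall of mouse pulmonary veins. Muscle of these veins and heart tissue taken with the lung cannot be told apart here.

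The spread between the arrays was small for most genes. Of 18194 genes, 10343 averaged at least 6, and their median SD was 0.17. Among these, 741 genes (7.16%) differed by 2-fold or more between the highest and the lowest array, and 96 (0.928%) by 4-fold or more. Single arrays carried much of this: without replicate 1 the counts were 355 and 56, and without replicate 4 they were 412 and 62. Replicates 2 and 3 differed by 2-fold or more in 51 genes, with a median difference of 0.08, whereas the other 5 pairs did so in 256 to 355 genes. The highest genes varied less than the typical gene averaging at least 6. The median SD of the highest 100 genes was 0.08, and 2 of them spanned 2-fold: Cxcl15 with 13.83, 14.93, 14.91 and 14.89, and Scd1, the desaturase that makes monounsaturated fatty acids, with 13.56, 14.54, 14.99 and 14.40. Both were lowest on replicate 1.

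**Figure D3:**
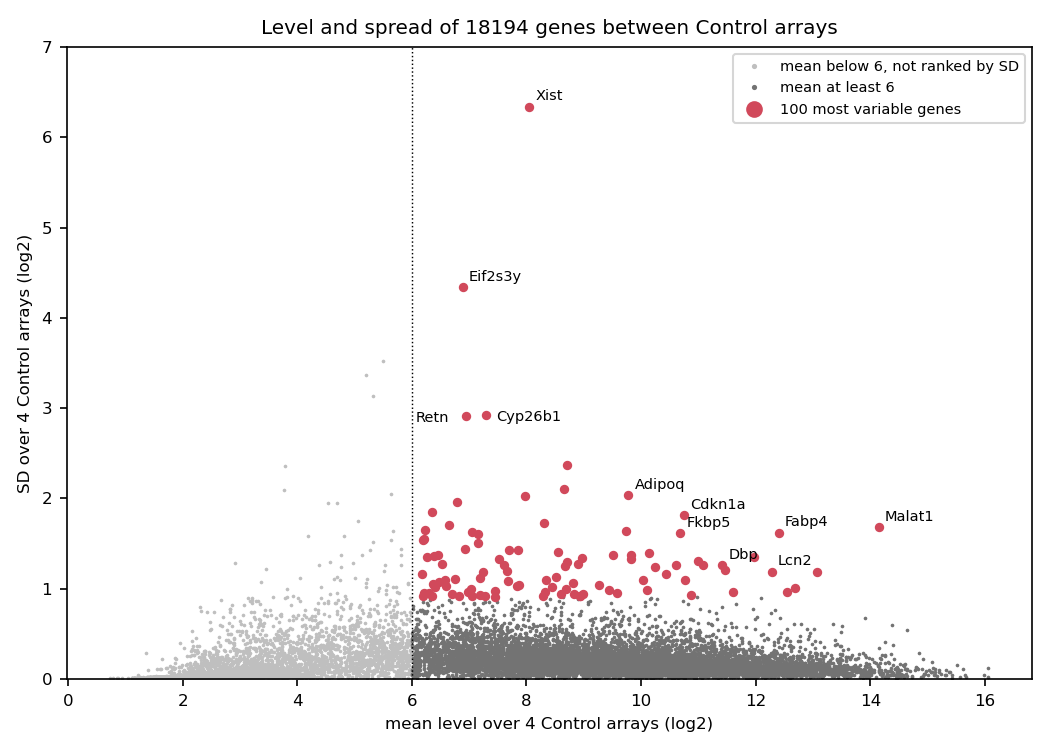
SD over the 4 Control arrays (log2, vertical axis) against the mean level (log2, horizontal axis) of 18194 genes; the dotted line marks the mean of 6 above which genes were ranked by SD, and red points are the 100 most variable genes. Xist and Eif2s3y stand far above the rest, and most genes have an SD under 1 at every level.

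The 100 most variable genes were chosen by their SD, so their spread is a description. The last gene included, Sik1, had an SD of 0.91, and the first one left out, Prmt8, also had 0.91. Replicates 2 and 3 were the highest arrays for 52 of the 100, against 19.5% of the 10343 genes. Replicates 1 and 4 were the highest for 18 of the 100, against 22.5%. Replicate 3 alone stood above the widest gap between the ordered arrays for 23 of the 100, against 3.35% of all genes with a mean of at least 6. Some of these 23, among them Retn, Cidea and Igk, reached a mean of 6 only through replicate 3, so this count partly follows from the filter. Of the 100, 22 had another probe set averaging at least 6, and for 15 of these it put the same array highest and the same array lowest. The same held for 27.2% of the 4330 genes with 2 such probe sets.

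**Figure D4:**
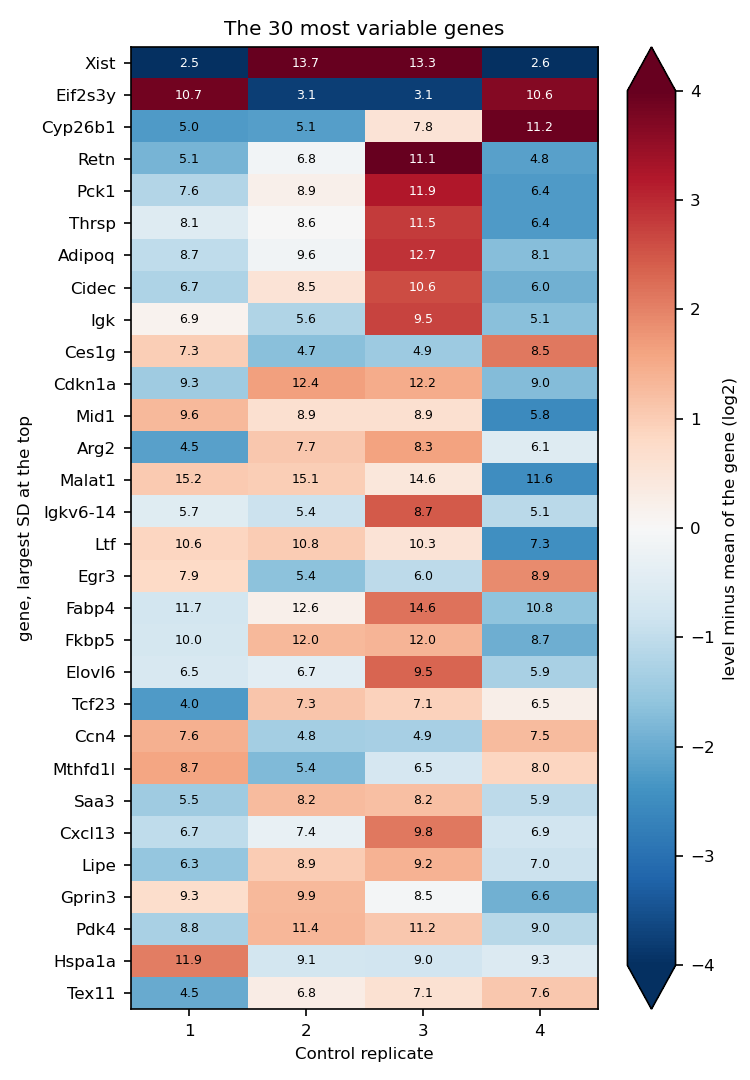
The 30 genes with the largest SD among genes averaging at least 6, 1 row per gene with the largest SD at the top and 1 column per Control array; colour shows the level minus the mean of the gene (log2, colours saturate at 4 in either direction) and the printed number is the level (log2). Xist and Eif2s3y split the arrays into replicates 2 and 3 and replicates 1 and 4, and the fat cell genes Retn, Pck1, Thrsp, Adipoq, Cidec and Fabp4 are highest on replicate 3.

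The largest spread was that of sex-linked transcripts. Xist, the RNA that silences 1 X chromosome in female cells, had 2.55, 13.73, 13.33 and 2.56. Eif2s3y, a Y-linked translation factor, had 10.74, 3.13, 3.13 and 10.56. Uty and Kdm5d, Y-linked histone demethylase genes, had 8.43, 2.44, 2.45 and 8.65, and 7.88, 2.29, 2.30 and 8.35. Xist was thus high on replicates 2 and 3, where the Y-linked genes lay near 2 to 3, and near 3 on replicates 1 and 4, where the Y-linked genes were high. All 3 Xist probe sets gave this order. The labels state no sex, so the Control arrays mix both patterns, and every gene set described below that separates the same arrays cannot be told apart from this difference.

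Genes induced by glucocorticoids, the adrenal stress hormones, were higher on replicates 2 and 3. Of the 16 on the list, 15 averaged at least 6. Replicates 2 and 3 were the highest arrays for 12 of these 15, against 19.5% of all genes. Replicate 4 was the lowest for 12, against 19.7%, and 8 spanned 2-fold or more, against 7.16%. Fkbp5, a chaperone of the glucocorticoid receptor, had 9.97, 11.98, 12.04 and 8.72. Its second probe set had 4.01, 8.55, 8.55 and 3.19. Replicates 2 and 3 lay close together and above both other arrays on each probe set.

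Other members followed the same order of arrays. Cdkn1a, the cell cycle inhibitor p21, had 9.34, 12.39, 12.23 and 9.03. Pdk4, which restrains glucose oxidation, had 8.84, 11.44, 11.22 and 9.02, and Angptl4, an inhibitor of lipoprotein lipase, had 9.20, 11.41, 11.22 and 9.15. In these 3 genes the arrays formed 2 tight pairs with a gap of more than 2 between the pairs. Zbtb16, a zinc finger repressor, had 11.85, 12.998, 12.94 and 10.10, and Lcn2, an iron-scavenging lipocalin that inflammation also induces, had 10.60, 13.12, 13.12 and 12.29. Here replicates 1 and 4 differed from each other as well. Outside the glucocorticoid list, Saa3, an acute phase protein, had 5.50, 8.19, 8.15 and 5.89, and Eln, elastin, had 9.59, 11.61, 11.78 and 9.44. Both split the arrays in the same way, and a second Eln probe set did so with 6.00, 9.18, 8.94 and 5.61.

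Genes of the circadian clock also separated these arrays. In the clock, the factors Clock and Arntl (also called Bmal1) or Npas2 switch on the Per and Cry genes through E-box motifs, and Per and Cry proteins then block them, so that members peak at different hours of the day. Dbp, Tef and Hlf are output factors that activate D-box genes, and Nfil3 represses the same sites. Of 18 clock genes measured, 15 averaged at least 6 and 11 of these spanned 2-fold or more, against 7.16% of all genes. Replicates 1 and 4 were the highest arrays for 9 of the 15, against 22.5% of all genes.

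Dbp had 12.15, 10.31, 10.39 and 12.81, and its second probe set had 11.46, 9.72, 9.78 and 11.98. Hlf had 11.51, 9.47, 8.99 and 10.16, and Tef had 12.15, 11.26, 11.10 and 11.64. On these probe sets all 3 output factors were lower on replicates 2 and 3 than on replicates 1 and 4. The 2 other Tef probe sets averaging at least 6 gave other orders, with 8.53, 7.81, 6.56 and 5.28, and with 6.86, 7.03, 6.55 and 7.67. The opposing factor Nfil3 had 5.19, 7.52, 7.35 and 5.03, high on the arrays where the output factors were low. Per2 had 11.17, 9.33, 9.48 and 10.31, Cry1 had 10.56, 8.88, 9.03 and 9.59, and Ciart, a repressor of Clock and Arntl, had 8.96, 7.26, 7.52 and 8.49. Usp2, a ubiquitin protease under clock control, had 9.55, 8.21, 8.41 and 9.55. These 4 were also lowest on replicates 2 and 3. Per3 was highest on replicate 1, with 10.76, 9.38, 9.10 and 9.35, and another of its probe sets had 9.26, 7.29, 7.23 and 8.75, higher on replicates 1 and 4. Arntl and Npas2 ran the other way, with 3.43, 6.63, 6.53 and 3.67, and 3.48, 5.07, 6.17 and 3.54, although both averaged under 6.

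The E-box is the sequence CACGTG, which reads the same on both strands. RefSeq promoter windows of mouse build GRCm38.p6 were searched over the 250 bases before each gene start. Of 16 clock list genes with a window, 5 held at least 1 E-box in any of their windows. Counted by window, and not by gene, 1978 of all 32851 windows, or 6.02%, held one. These 5 were Bhlhe41, Ciart, Cry1, Per1 and Tef, and a match is a description of letters, not of binding. Of these 5, the windows of 3 genes whose levels separated the arrays are printed, with the E-box in capitals. The windows of Dbp, Hlf, Nfil3, Usp2, Arntl and Npas2 held no E-box, although the levels of these genes separated the arrays too. Ciart has 3 matches and lies at chr3:95882229-95882478, minus strand. Cry1 has 1 match at chr10:85185055-85185304, minus strand, and Tef has 1 match at chr15:81802423-81802672, plus strand. A second Tef window, at chr15:81811164-81811413, plus strand, also holds 1 match and is not printed.
Ciart: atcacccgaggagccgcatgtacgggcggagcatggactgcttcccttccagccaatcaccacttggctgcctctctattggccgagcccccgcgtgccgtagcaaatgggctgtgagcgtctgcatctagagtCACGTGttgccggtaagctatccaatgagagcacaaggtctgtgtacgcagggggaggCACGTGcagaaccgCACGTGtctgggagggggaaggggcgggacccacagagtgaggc
Cry1: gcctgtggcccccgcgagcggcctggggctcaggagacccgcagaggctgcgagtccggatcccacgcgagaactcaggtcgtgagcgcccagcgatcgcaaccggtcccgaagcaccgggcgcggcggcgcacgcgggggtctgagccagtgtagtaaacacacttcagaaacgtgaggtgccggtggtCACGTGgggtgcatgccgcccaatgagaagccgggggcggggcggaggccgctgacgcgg
Tef: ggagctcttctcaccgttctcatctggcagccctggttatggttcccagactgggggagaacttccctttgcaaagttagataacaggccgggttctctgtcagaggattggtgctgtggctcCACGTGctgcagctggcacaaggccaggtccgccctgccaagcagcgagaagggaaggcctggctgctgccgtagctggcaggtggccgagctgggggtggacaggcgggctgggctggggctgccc

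**Figure D5:**
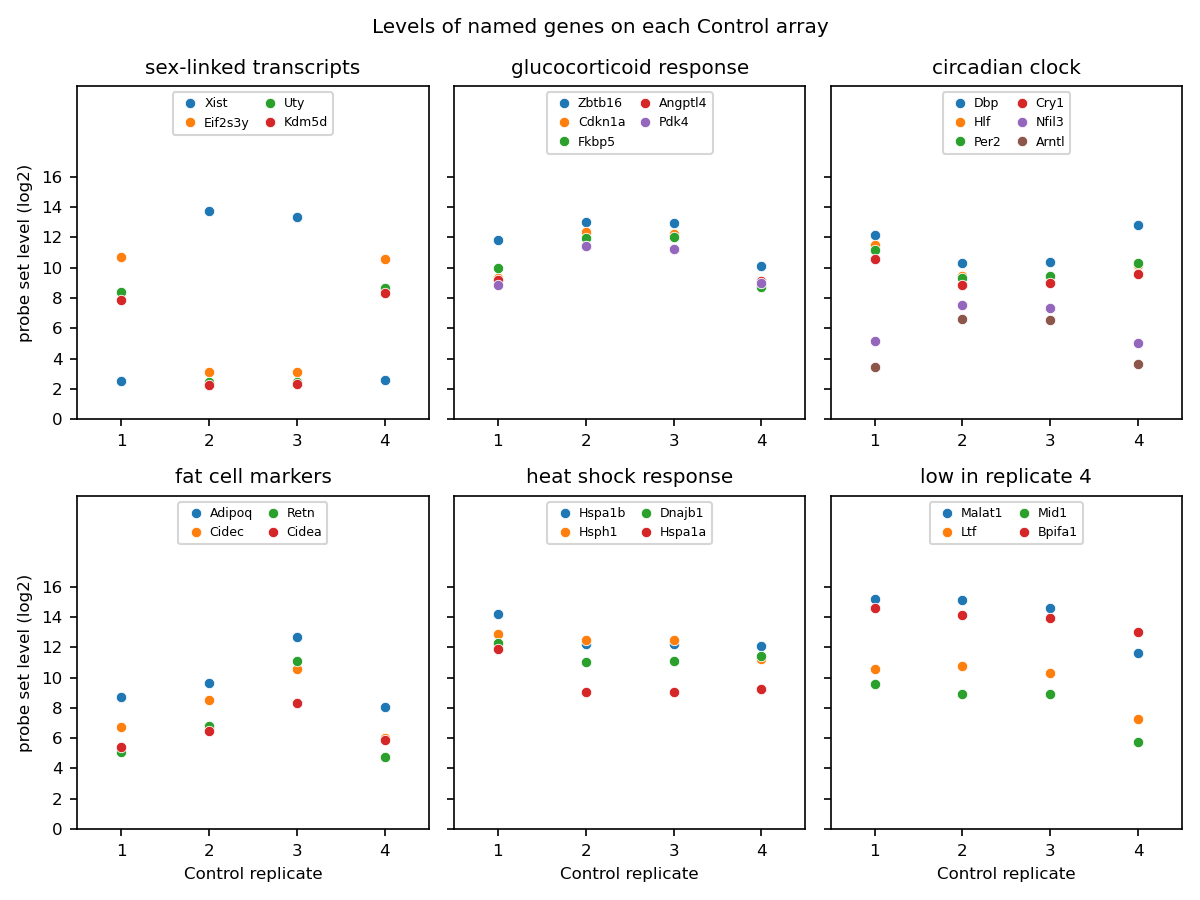
Probe set level (log2, vertical axis) of named genes on each Control array (horizontal axis, replicates 1 to 4), 1 panel per gene group and 1 colour per gene. In the upper row replicates 2 and 3 differ from replicates 1 and 4; in the lower row fat cell markers are highest on replicate 3, heat shock genes on replicate 1, and Malat1, Ltf, Mid1 and Bpifa1 are lowest on replicate 4.

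Immediate early genes, which cells switch on within minutes of a stimulus, were mixed. Of 18 measured, 16 averaged at least 6, replicate 4 was the lowest array for 9 of them, against 19.7% of all genes, and 5 spanned 2-fold, against 7.16%. Egr3 had 7.86, 5.41, 6.01 and 8.93, and Nr4a1, an orphan nuclear receptor, had 11.02, 9.28, 9.53 and 10.87. Both were higher on replicates 1 and 4, in contrast to Fos, with 11.73, 12.28, 12.14 and 11.48. Ces1g, a carboxylesterase, had 7.33, 4.69, 4.92 and 8.47, and Ccn4, a matricellular protein, had 7.61, 4.84, 4.88 and 7.45. Mthfd1l, a mitochondrial folate enzyme, had 8.72, 5.38, 6.48 and 8.01. All 3 were higher on replicates 1 and 4 than on replicates 2 and 3.

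Fat cell genes were highest on replicate 3. Adipoq, the fat hormone adiponectin, had 8.75, 9.62, 12.68 and 8.06, and Retn, resistin, had 5.07, 6.83, 11.10 and 4.77, an 80.3-fold span. Cidec, a lipid droplet protein, had 6.73, 8.52, 10.58 and 6.04, and Cidea, a related protein of brown and beige fat, had 5.41, 6.47, 8.32 and 5.88. These are the 4 of 6 measured markers that averaged at least 6. Replicate 3 was the highest array for all 4, against 17.0% of all genes, and replicate 2 was the next highest for all 4. Retn and Cidea reached a mean of 6 only through replicate 3, so this count partly follows from the filter. Lep, leptin, and Ucp1, the uncoupling protein of brown fat, lay between 1.97 and 2.49 on every array, near the foreign tissue genes.

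Genes of fat storage and synthesis had the same highest array. Fabp4, a fatty acid carrier of fat and endothelium, had 11.65, 12.61, 14.56 and 10.78. Pck1, which supplies glycerol for fat, had 7.56, 8.92, 11.93 and 6.45, and Thrsp, a regulator of lipid synthesis, had 8.12, 8.62, 11.45 and 6.39. Replicate 3 again exceeded every other array, and replicate 4 was the lowest. Elovl6, a fatty acid elongase, had 6.52, 6.74, 9.49 and 5.87, and Fasn, fatty acid synthase, had 10.98, 12.41, 13.09 and 11.86. Of 10 lipid synthesis genes averaging at least 6, 7 were highest on replicate 3, against 17.0% of all genes, and 8 were lowest on replicate 1, against 43.0%. Lipe, the hormone-sensitive lipase, had 6.30, 8.87, 9.23 and 6.97, high on both replicates 2 and 3. Fat cell genes, Xist and the glucocorticoid genes thus overlap in the arrays they set apart, and the part of fat tissue in the lipid gene levels was not tested.

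Antibody genes were also highest on replicate 3. Ighm, the heavy chain of IgM, had 11.46, 10.78, 13.17 and 10.47, and Jchain, which joins IgM and IgA units, had 10.52, 9.85, 12.35 and 10.35. Igk had 6.94, 5.58, 9.49 and 5.13, and the kappa variable gene Igkv6-14 had 5.73, 5.36, 8.68 and 5.14. Igha, the IgA heavy chain, spanned less, with 12.38, 12.46, 13.17 and 12.61. Replicate 3 was above the other 3 arrays in all 5 genes. Igk and Igkv6-14 reached a mean of 6 only through replicate 3, so this count partly follows from the filter. Cxcl13, the chemokine that attracts B cells, had 6.68, 7.40, 9.80 and 6.92. Of the B cell surface genes, Ms4a1 was also highest on replicate 3, by a smaller step, with 9.05, 8.71, 9.62 and 9.32. Cd79a was highest on replicate 1, with 9.76, 8.91, 9.38 and 8.87. Of 6 B cell markers averaging at least 6, replicate 3 was the highest array for 1, against 17.0% of all genes. Antibody gene probe sets can bind several family members, so a level is not that of 1 gene alone.

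Replicate 1 stood apart in heat shock genes and in type II cell genes. Hspa1a, an inducible chaperone, had 11.88, 9.07, 9.04 and 9.28, and its near-identical neighbour Hspa1b had 14.20, 12.21, 12.23 and 12.10. Dnajb1, their co-chaperone, had 12.31, 11.04, 11.09 and 11.40. The 3 other arrays lay close together while replicate 1 was higher. Of 12 heat shock genes, all averaging at least 6, 9 were highest on replicate 1, against 20.2% of all genes, and 10 were lowest on replicate 4, against 19.7%. Hsph1, a chaperone that works with Hspa1a, was lowest on replicate 4, with 12.86, 12.51, 12.47 and 11.20.

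Replicate 1 was the lowest array for 12 of 13 type II cell markers, against 43.0% of all genes, Sftpc being the exception. Sftpa1 had 14.43, 15.07, 14.99 and 14.91, and its second probe set had 13.22, 14.37, 14.23 and 14.03. Etv5, a transcription factor of type II cells, had 11.45, 12.62, 12.64 and 12.999, and Chil1, a secreted chitinase-like protein, had 12.07, 13.19, 13.20 and 13.11. Replicate 1 lay below the other 3 arrays in these 3 genes, while the others were close. Type I cell markers ran the other way, with replicate 1 the highest array for 10 of 12, against 20.2% of all genes. Igfbp2, a growth factor binding protein of type I cells, had 13.37, 12.10, 12.23 and 13.003, and Gprc5a had 14.19, 13.69, 13.75 and 13.56.

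Some macrophage and neutrophil genes were low on replicate 1 too. Among members averaging at least 6, replicate 1 was the lowest array for 5 of 7 alveolar macrophage markers and 4 of 5 neutrophil markers, against 43.0% of all genes. For monocyte and interstitial macrophage markers it was the lowest for 5 of 12, which is near that share. Chil3 had 12.66, 13.97, 13.85 and 13.51, and Plet1, a surface protein of alveolar macrophages, had 10.40, 11.43, 11.27 and 10.93. S100a8 had 10.23, 11.60, 11.83 and 11.60, and S100a9 had 9.01, 10.54, 10.73 and 10.71. In each of these 4 genes replicate 1 lay below the 3 other arrays, which was not so for Ltf. Smooth muscle genes were highest on replicate 1 in 8 of 9 cases, against 20.2% of all genes, by small steps, as in Tagln with 12.84, 12.52, 12.38 and 12.28. The 3′ minus 5′ probe set difference of Gapdh, a measure of how complete the labelled RNA was, was largest on replicate 1, at 0.79, 0.47, 0.54 and 0.50, and that of Actb was 0.75, 0.60, 0.63 and 0.77. The part of RNA quality in these levels was not tested.

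Replicate 4 held the lowest values of several genes. Malat1, an abundant nuclear long non-coding RNA, had 15.20, 15.13, 14.59 and 11.65, an 11.8-fold span with replicate 4 at its lower end. All 7 Malat1 probe sets were lowest on replicate 4. Ltf had 10.59, 10.76, 10.30 and 7.30, and Mid1, an X-linked ubiquitin ligase, had 9.59, 8.95, 8.93 and 5.75. Bpifa1 had 14.59, 14.11, 13.96 and 12.98, and Foxj1 had 10.34, 10.02, 10.13 and 9.18. Among markers averaging at least 6, replicate 4 was the lowest array for 5 of 10 of ciliated cells, against 19.7% of all genes. It was the lowest for 3 of 9 club cell markers, and replicate 3 for 5 of 9. Gprin3 had 9.26, 9.86, 8.48 and 6.62. Cyp26b1, which degrades retinoic acid, was high on replicate 4 instead, with 5.02, 5.08, 7.84 and 11.20. Reln, a secreted glycoprotein of lymphatic endothelium, was also highest there, with 6.07, 7.35, 7.35 and 8.31. Ppbp, a platelet chemokine, had 9.72, 9.42, 9.22 and 10.72, and Pf4, its platelet neighbour, had 9.03, 9.13, 9.33 and 9.41. Both were highest on replicate 4, as were all 3 platelet markers averaging at least 6, against 45.8% of all genes.

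That share, 45.8% of the 10343 genes with a mean of at least 6, is the background for larger groups as well. Replicate 4 was the highest array for 50 of 84 such oxidative phosphorylation genes, 28 of 45 such ribosomal protein genes and 9 of 12 such interferon response genes. Ifit3, an interferon-induced antiviral protein, had 10.91, 9.89, 10.15 and 11.11, and Gbp2, an interferon-induced GTPase, had 11.69, 11.63, 11.52 and 12.26. The median SD of the oxidative phosphorylation genes was 0.11 and that of the ribosomal protein genes 0.08, so these steps were small.

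Another 3 of the 30 most variable genes were lowest on replicate 1. Arg2, the mitochondrial arginase, had 4.49, 7.73, 8.26 and 6.13, and its second probe set had 4.08, 7.63, 8.11 and 6.67. Tcf23 had 3.96, 7.32, 7.15 and 6.46. Tex11, an X-linked gene of meiosis, had 4.45, 6.76, 7.08 and 7.55. Mmp9, a matrix protease of neutrophils and macrophages, had 5.31, 6.30, 7.09 and 7.67, and was also lowest on replicate 1.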

How the data were processed

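Expression of whole mouse lung was measured on 4 Control arrays of a series of 14. The deposited values are log2 levels, 1 per probe set and array, and MAS5 and GCRMA appear in the submitters' processing notes, which state neither versions nor what each was used for. The scale was taken from the range of the values, and they were used with no further normalization. Probe sets were named from the platform annotation: of 45101, 34958 carried 1 symbol, 932 several and 9211 none, and 34754 matched an Entrez identifier of the reference, which changed 0 symbols.

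Each gene was represented by its probe set with the highest mean over the 4 arrays. Mean, SD, span and rank were computed with pandas 2.3.3 and numpy 2.4.6 in Python 3.11.15, and figures were drawn with matplotlib 3.10.9. Genes were ranked by SD where the mean was at least 6. The steps were tested on simulated data. No contrast between groups and no significance test was made, and with 4 arrays the number of arrays limits the precision. The log2 values carry no read depth.

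The members and the 52 gene lists were chosen with earlier results of these data known. Named genes are the 30 with the highest mean, the 30 with the largest SD, Nampt, up to 4 members of each list by mean and by SD, and list members among the highest 100 or the 100 most variable. Outside this rule, Sftpb, Cry1, Per3, Ciart, Usp2, Arntl, Npas2, Cyp1a1, Prox1, Camp, Mmp8, Myl3, Fos, Lep, Ucp1 and Il6 were named after their values were seen, Sik1 and Prmt8 as the limits of the SD ranking, and Gapdh for RNA quality. Promoter windows came from RefSeq, build GRCm38.p6.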

Additional observations from a re-analysis of the deposited data

Results flagged for a closer look

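For each of the 163 genes named here, the gap between the highest or lowest Control array and the nearest other array was divided by the range over all 4 arrays. Dixon's 95% critical value for 4 samples was the limit. Chance alone passes it in about 1 of 20 groups, and 817 of 10343 genes with a mean of at least 6 passed it. It was passed by 22 named genes: replicate 1 was the array apart for 12 of them, replicate 4 for 6, replicate 3 for 3 and replicate 2 for 1. Many of the 163 genes were named for a large SD or after their values were seen, and some averaged below 6. The 22 are therefore a description and cannot be compared with chance or with the 817.

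Replicate 1 was apart in Hspa1a (ratio 0.917) and Hspa1b (0.938), both higher there, and in the type II cell genes Cxcl15 (0.966) and Chil1 (0.919) and the neutrophil genes S100a8 (0.853) and S100a9 (0.887), all lower there. Kit (0.835), Cd74 (0.911) and B2m (0.875) were also lower on replicate 1, and Car4 (0.882), Per3 (0.836) and Prox1 (0.981) higher. The steps of Cd74 and B2m were small: Cd74 had 13.92, 14.05, 14.04 and 14.04, and B2m had 14.87, 14.98, 15.00 and 14.99.

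Replicate 4 was apart in Ltf (0.865), Mid1 (0.8291) and Sik1 (0.848), all lower there, and in Rpl37a (0.838), Myh7 (0.856) and Il6 (0.836), higher there. Myh7, the slow and ventricular myosin heavy chain, had 6.48 to 6.71 on the other arrays and 8.09 on replicate 4. Replicate 3 was apart, and higher, in Igkv6-14 (0.835), Mmp8 (0.853) and Ucp1 (0.912). Replicate 2 was apart, and higher, in Camp (0.954). Prox1, Mmp8, Ucp1, Camp and Il6 lay between 2.04 and 3.41 on every array, at the lower end of the scale, where their ratios rest on small steps.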

How the results depend on the processing

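Centring each array on its median, quantile normalization and the linear scale kept all 7 summary counts within 1.5 times. Averaging all probe sets of a gene left 50 of the highest 100 genes in place, and it moved the mean level of 73 of 163 named genes by more than 1 SD. Leaving out probe sets ending in _x_at or _s_at moved 17 named genes and could not be run for 3. A filter at a mean of 8 instead of 6 left 51 of the 100 most variable genes and gave 389 genes spanning 2-fold and 49 spanning 4-fold. With no filter the values were 64, 1134 and 156. Leaving out 1 array at a time kept between 66 and 88 of the 100 most variable genes, and gave 355 to 659 genes spanning 2-fold and 56 to 92 spanning 4-fold, the lowest without replicate 1 in each case. Without replicate 4, 412 and 62 genes spanned 2-fold and 4-fold, and fewer arrays can only narrow a span. Cell type markers in the highest 10% numbered 75 to 79 under every alternative, and list members among the 100 most variable 24 to 30. Of 572 counts of list members in the highest 10%, 558 stayed within 1.5 times. Second probe sets agreed for 12 to 17 genes, but the number of genes that had one ranged from 18 to 46. The agreement was 14 of 46 with no filter, where second probe sets at any level counted. It was 14 of 24 with the filter at 8 and 16 of 18 without replicate 2. This count could not be run with averaged probe sets. No paired analysis was possible because no result comes from a test. Probe sets near 2 on the log2 scale show only that a signal was not above that of genes foreign to the lung.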

Other observations

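Several gene groups that mark no single cell type were read from the same 4 Control arrays. Genes that process foreign and endogenous chemicals were high, with 11 of 12 measured members in the highest 10% of genes and a median of 13.38. Cyp4b1, a lung cytochrome P450, averaged 14.54 ± 0.03 (SD, n = 4), whereas Cyp1a1, the P450 that the aryl hydrocarbon receptor induces, averaged 8.05. Cell cycle genes were low, with a median of 4.53 and 8 of 13 below 6. Mki67, a marker of dividing cells, had 7.37, 8.02, 7.77 and 7.62 on replicates 1 to 4. Inflammatory genes ranged from Hp, haptoglobin, at 14.06 to Il6 near 2, and Il1b had 5.85, 7.24, 7.52 and 7.72.

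Mesothelial markers of the lung surface, 6 of 7 with a mean of at least 6, were lowest on replicate 1 in 5 cases, against 43.0% of all genes, and highest on replicate 3 in 4 cases, against 17.0%. Upk3b, a uroplakin of mesothelium, had 10.34, 10.93, 11.40 and 10.76. Replicate 3 was thus the highest array for 4 of 6 mesothelial markers, as for the fat cell and antibody genes described above, and the part of tissue attached to the lung was not tested.

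Some extreme Control values lay outside the range of the other 10 arrays of the series, labelled VALI, PBEF+/- and VILI PBEF+/-, the last of these from mice aged 8 to 12 weeks. Cyp26b1 spanned 5.02 to 11.20 on the Control arrays and 3.39 to 5.21 on the others. Malat1 spanned 11.65 to 15.20 on the Control arrays and 14.20 to 15.43 on the others. Mid1 spanned 5.75 to 9.59 on the Control arrays and 8.39 to 12.10 on the others. Retn reached 11.10 on a Control array and at most 9.90 on the others. Arntl reached 6.63 on the Control arrays and at most 4.89 on the others. These ranges were not tested.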
